A study of Homo sapiens with 3 samples.

Results

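Antisense RNAs with enough reads to be compared were examined in cells re-expressing TCF7L1. A gene was included when its deposited biotype was antisense and its raw read counts added up to at least 200 over the 3 libraries. Genes on chromosome X were left out, as were KCNQ1OT1, AIRN and MESTIT1 by name. Of 58735 genes in the count table, 5583 were antisense, 3817 of these had a count, 306 reached 200 counts, and 300 remained after 5 were left out on X and 1 by name. They lay on 22 chromosomes, with 29 on chromosome 1. Because the rule used the same counts as the comparisons, the counts and medians over these 300 RNAs are a description. For 75 of them the total would have been under 200 had all libraries been at their lowest scaled level. Among these 75 are AC098864.1, AC116614.1, EMX2OS, FLJ46906, AC105942.1 and DLX6-AS1, all lower with TCF7L1. Also among them are NRAV, AC083855.2, KCNMB2-AS1, GPRC5D-AS1 and SGMS1-AS1, all higher with TCF7L1 than with vector. Each of these RNAs reached 200 counts only through the libraries where it was higher. Just inside the limit were LINC01311 with 200 counts, ENTPD3-AS1 with 201 and AC004803.1 with 201, and just outside were AC067750.1 and AC027601.1 with 199 counts each. Their log2 fold changes for TCF7L1 against vector were -0.38, -0.23 and 0.68 inside and -0.15 and -0.58 outside.

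An antisense RNA is transcribed from the strand opposite another gene, often head to head from the same promoter region or across the body of that gene. Some act on the neighbouring locus through the act of transcription, through base pairing with the sense transcript or through chromatin factors, and for many no function is known. TCF7L1 is a DNA-binding protein of the TCF/LEF family that mostly represses transcription at Wnt-responsive genes. In the HOX clusters and beside other developmental transcription factor genes, antisense RNAs are commonly expressed along with the coding genes around them.

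The RNA came from stable cells labelled HCT116, a human colorectal carcinoma line. All 3 lines first received the lentiviral hairpin shTCF7L1-2, which lowers endogenous TCF7L1, and were then kept in 1 µg/ml Dox over 18 h. They carried an empty vector, a Dox-inducible TCF7L1 cDNA resistant to the hairpin, or TCF7L1-MUT, the same cDNA with 2 point mutations in the DNA-binding domain. Each condition had 1 library from puromycin-selected stable cells, so no difference has a replicate check and no p-value is given. As a check of the labels, TCF7L1 measured 4.45 FPKM with vector, 141 FPKM with TCF7L1 and 28.5 FPKM with TCF7L1-MUT, where FPKM is the fragments per kilobase of gene length scaled for library size (496, 10723 and 2529 raw counts). The mutant line therefore held less TCF7L1 RNA than the wild-type line, and an effect of the mutations cannot be told apart from this difference in level.

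Total counts were 24190426 for vector, 17466191 for TCF7L1 and 20328324 for TCF7L1-MUT, of which the 300 RNAs took 0.302%, 0.255% and 0.258%. Of 12 colorectal epithelial markers, 7 had at most 27 counts in every library (VIL1, CDH17, GPA33, LGALS4, KRT20, CDX1 and CEACAM5), while EPCAM, CDH1, CDX2, KRT8 and KRT18 were present. The summed level of the 12 was 139, 231 and 202 FPKM in the vector, TCF7L1 and TCF7L1-MUT libraries. EPCAM, KRT8 and KRT18 carried this difference, whereas CDH1 (log2 fold changes of -0.53 with TCF7L1 and -0.51 with TCF7L1-MUT) and CDX2 (-0.58 and -0.34) lay below the vector. All 8 markers of embryonic kidney lines were detected in the vector library, with a summed level of 372 FPKM there, 73.9 FPKM with TCF7L1 and 121 FPKM with TCF7L1-MUT. IRS4 alone made up 209 FPKM of the vector sum, and PAX2 with TCF7L1 (log2 0.37) and ZIC2 with TCF7L1-MUT (log2 0.15) lay above the vector. Of 7 fibroblast markers, 4 had at most 27 counts in every library, and the sums were 18.8, 13.9 and 14.7 FPKM. The summed marker levels thus moved with the comparisons below, though not every marker did, and their part in the results was not tested. In bulk RNA, fewer cells of a type cannot be told apart from less RNA per cell.

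The promoter windows of 5 antisense RNAs are shown because their genes lead the results. They are NNT-AS1 and ZNF503-AS2, each lower together with the coding gene it faces, HAGLR and HOXA11-AS from HOX clusters, and NRAV, with the largest positive fold change. Each runs from 250 bases before to 50 bases after a RefSeq start on GRCh38.p14, read 5′ to 3′ on the strand of the antisense gene. The locations are chr5:43603181-43603480 on the minus strand for NNT-AS1, chr10:75401278-75401577 on the plus strand for ZNF503-AS2, chr2:176188909-176189208 on the minus strand for HAGLR, chr7:27185158-27185457 on the plus strand for HOXA11-AS and chr12:120495897-120496196 on the minus strand for NRAV. The RefSeq start lay 0, 9, 0, 901 and 6 bases from the start in the count table, in the same order. Capitals mark the word CTTTGAA or the variant CTTTGAT, the variant CTTTGTA or the variant CTTTGTT, core letters that TCF/LEF proteins are known to bind, searched on both strands and without overlap with one another in these windows.
NNT-AS1: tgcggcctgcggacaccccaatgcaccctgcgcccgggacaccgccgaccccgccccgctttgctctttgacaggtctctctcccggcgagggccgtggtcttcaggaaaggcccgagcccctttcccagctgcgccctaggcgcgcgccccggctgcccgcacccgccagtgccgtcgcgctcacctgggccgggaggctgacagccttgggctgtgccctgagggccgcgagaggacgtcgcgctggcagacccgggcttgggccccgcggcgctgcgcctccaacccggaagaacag
ZNF503-AS2: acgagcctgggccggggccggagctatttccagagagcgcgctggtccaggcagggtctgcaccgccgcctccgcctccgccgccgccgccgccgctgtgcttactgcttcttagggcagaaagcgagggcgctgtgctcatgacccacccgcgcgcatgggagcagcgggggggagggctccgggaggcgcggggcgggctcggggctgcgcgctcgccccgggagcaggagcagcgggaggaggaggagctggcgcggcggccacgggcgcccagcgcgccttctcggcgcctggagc
HAGLR: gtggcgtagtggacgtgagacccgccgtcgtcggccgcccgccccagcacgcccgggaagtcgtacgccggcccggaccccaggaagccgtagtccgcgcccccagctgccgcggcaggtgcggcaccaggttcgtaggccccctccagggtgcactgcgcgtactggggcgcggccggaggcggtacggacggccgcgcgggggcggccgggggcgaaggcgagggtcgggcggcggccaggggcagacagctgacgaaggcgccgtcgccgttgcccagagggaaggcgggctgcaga
HOXA11-AS: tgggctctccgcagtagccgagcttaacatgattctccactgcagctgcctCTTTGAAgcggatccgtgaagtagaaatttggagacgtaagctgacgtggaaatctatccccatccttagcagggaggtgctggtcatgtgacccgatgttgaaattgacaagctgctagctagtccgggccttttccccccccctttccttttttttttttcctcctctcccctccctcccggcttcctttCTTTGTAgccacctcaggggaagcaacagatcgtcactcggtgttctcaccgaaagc
NRAV: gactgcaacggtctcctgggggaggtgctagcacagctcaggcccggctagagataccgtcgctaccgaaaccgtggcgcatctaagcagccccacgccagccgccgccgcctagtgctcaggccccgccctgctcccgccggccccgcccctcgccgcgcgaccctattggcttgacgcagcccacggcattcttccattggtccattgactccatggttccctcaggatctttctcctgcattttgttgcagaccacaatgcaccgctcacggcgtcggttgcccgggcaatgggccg
The HOXA11-AS window held 2 matches, CTTTGAA at position -199 and CTTTGTA at position -7 from the RefSeq start. The other 4 windows held 0. Of all 35116 windows in the RefSeq table, 13.8% held at least 1 of the words. The table had 142 windows for 113 of the 300 antisense RNAs, and 13.4% of these held one, so the share was close to that of all genes. For the 30 RNAs lower past a log2 fold change of 1 with TCF7L1, 11 had windows, and 5 of their 19 windows held a word, those of HOXA-AS2, HOXA11-AS, HOXB-AS3 and ZNF503-AS2, the last in others of its 6 windows. A match is a run of letters and not a measured binding site.

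The 300 RNAs were weakly expressed. Their median total was 359 counts, 34 had at least 1000, and the most counted, GABPB1-AS1, had 7569. Per length, the median of their mean levels was 2.53 FPKM, against 7.17 FPKM for the 12429 protein-coding genes with at least 200 counts. There were 22 above 10 FPKM and 39 below 1 FPKM. The highest mean was 24.4 FPKM, for AC005288.1, which lies by the Mediator subunit gene MED1 and measured 23.7 FPKM with vector, 24.2 FPKM with TCF7L1 and 25.2 FPKM with TCF7L1-MUT. FGD5-AS1 measured 19.5, 20.9 and 17.3 FPKM in the same libraries, VPS9D1-AS1 21.4, 21.0 and 16.7 FPKM, and AL513165.1 18.8, 22.9 and 19.96 FPKM. These abundant RNAs lay within a log2 fold change of 0.5 of the vector in both other libraries. SNHG7, a host gene of small nucleolar RNAs, was instead higher at 13.0, 20.2 and 18.3 FPKM, AC099850.3 measured 13.9, 18.3 and 18.6 FPKM, and MHENCR was lower at 21.9, 13.6 and 14.0 FPKM.

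The first comparison asks what re-expressed TCF7L1 does to these RNAs relative to the empty vector. Antisense RNAs of HOX clusters and of other developmental transcription factor genes were among the lowest, together with NNT-AS1 and several unnamed transcripts, and NRAV was the highest. With TCF7L1, 30 of the 300 RNAs (10.0%) were lower past a log2 fold change of 1, against 7.34% of the 13497 genes with at least 200 counts. Another 11 (3.67%) were higher past 1, against 1.8% of all genes. The split was 40 lower and 5 higher when only library size was scaled. No share of all genes was computed for that scaling, under which the median of all genes was -0.04 in place of 0.05. Past a log2 fold change of 2, the fold used in the study, 7 were lower (2.33%, against 1.84% of all genes) and 0 higher (against 0.0815%). The median was -0.14, against 0.05 for all genes, and 183 of 300 were below 0, where 45.9% of all genes were. Over all 300 RNAs the shares past these folds were not far from the background, and shares and medians differed by abundance. Among the RNAs with 200 to 999 counts the median was -0.14, against -0.16 for all genes in that range. Of all genes in that range, 60.2% were below 0. With at least 1000 counts the medians were -0.06 for the antisense RNAs and 0.09 for all genes. Among the 266 RNAs with 200 to 999 counts, 9.02% were lower past 1 against 17.5% of all genes in that range, and among the 34 with at least 1000 counts it was 6, or 17.6%, against 3.34%. Named after their values were seen, these 6 were HAGLR, HOTAIRM1, ZNF503-AS2, SLC16A1-AS1, FLJ37453 and AL355488.1. Of 223 long intergenic noncoding genes with at least 200 counts, 11.2% were lower past 1. When antisense genes were instead chosen on at least 67 counts in the TCF7L1-MUT library, which is outside this comparison, 29 of 279 (10.4%) were lower past 1, against 6.54% of all genes chosen the same way. This choice sets a lower limit only and does not match both sets for count, so it shows no excess for antisense RNAs.

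**Figure D1:**
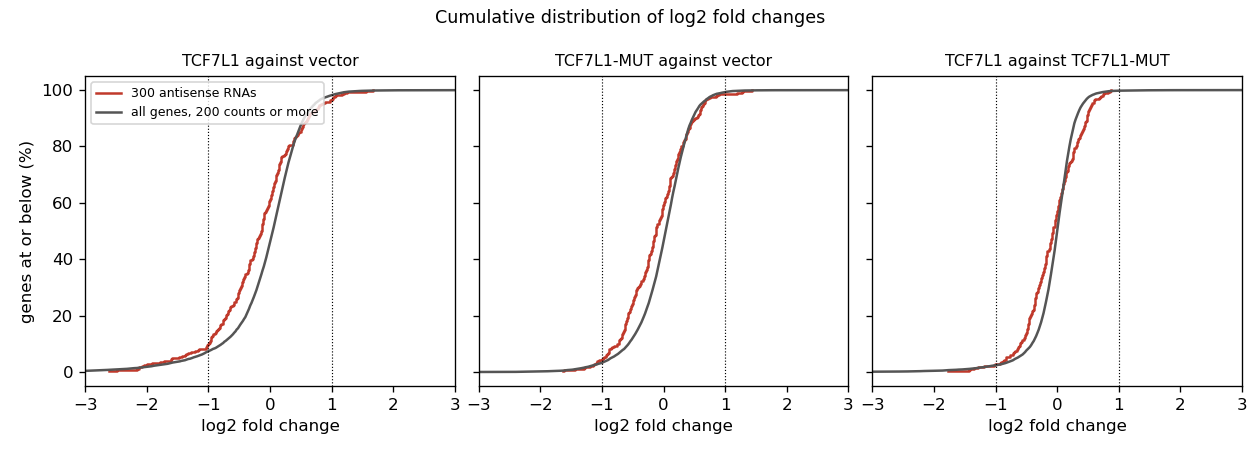
Cumulative percentage of genes (vertical axis) at or below each log2 fold change (horizontal axis) for the 300 antisense RNAs (red) and for all 13497 genes with at least 200 counts (grey) in the 3 comparisons, with dotted lines at -1 and 1. The red curve lies to the left of the grey one through the middle of the range, with medians of -0.14 against 0.05, -0.12 against 0.04 and -0.07 against 0.00. Most of the 300 RNAs have under 1000 counts in total, and the curves are not matched for count.

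The largest differences with TCF7L1 were found in RNAs of low to moderate count. AC098864.1, which overlaps the 5′ end of the teneurin gene TENM3 on chromosome 4 (181874438 to 182145249), had 245 counts with vector, 27 with TCF7L1 and 107 with TCF7L1-MUT. It was 6.15-fold lower with TCF7L1, a log2 fold change of -2.62 with a 95% counting interval of -3.26 to -2.05. These intervals cover counting error only. TENM3 itself was at -0.98. AC116614.1, a short transcript 593 bases from the syntrophin gene SNTG2, had 418, 51 and 151 counts in the vector, TCF7L1 and TCF7L1-MUT libraries and a log2 fold change of -2.48 (-2.93 to -2.06). SNTG2 had at most 25 counts in any library.

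EMX2OS runs opposite EMX2, a homeobox gene of forebrain and urogenital development. It had 324 counts with vector, 49 with TCF7L1 and 139 with TCF7L1-MUT, 4.49-fold lower with TCF7L1 (log2 -2.17, interval -2.63 to -1.73). EMX2 was too weakly counted to enter the paired counts, with 88, 29 and 34. LINC00649 had 478, 74 and 123 counts (log2 -2.13, -2.51 to -1.78), low in both TCF7L1 libraries. FLJ46906 had 297, 48 and 150 counts (log2 -2.07, -2.54 to -1.63), while NHSL1, the gene that shares its start region, stood at 0.26. AC105942.1, which starts 288 bases from CNN3, the gene of an actin-binding calponin, had 170, 29 and 90 counts (log2 -1.99, -2.62 to -1.42), and CNN3 was at -0.60. In each of these RNAs the TCF7L1 library was the lowest and the mutant library stood between it and the vector.

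**Figure D2:**
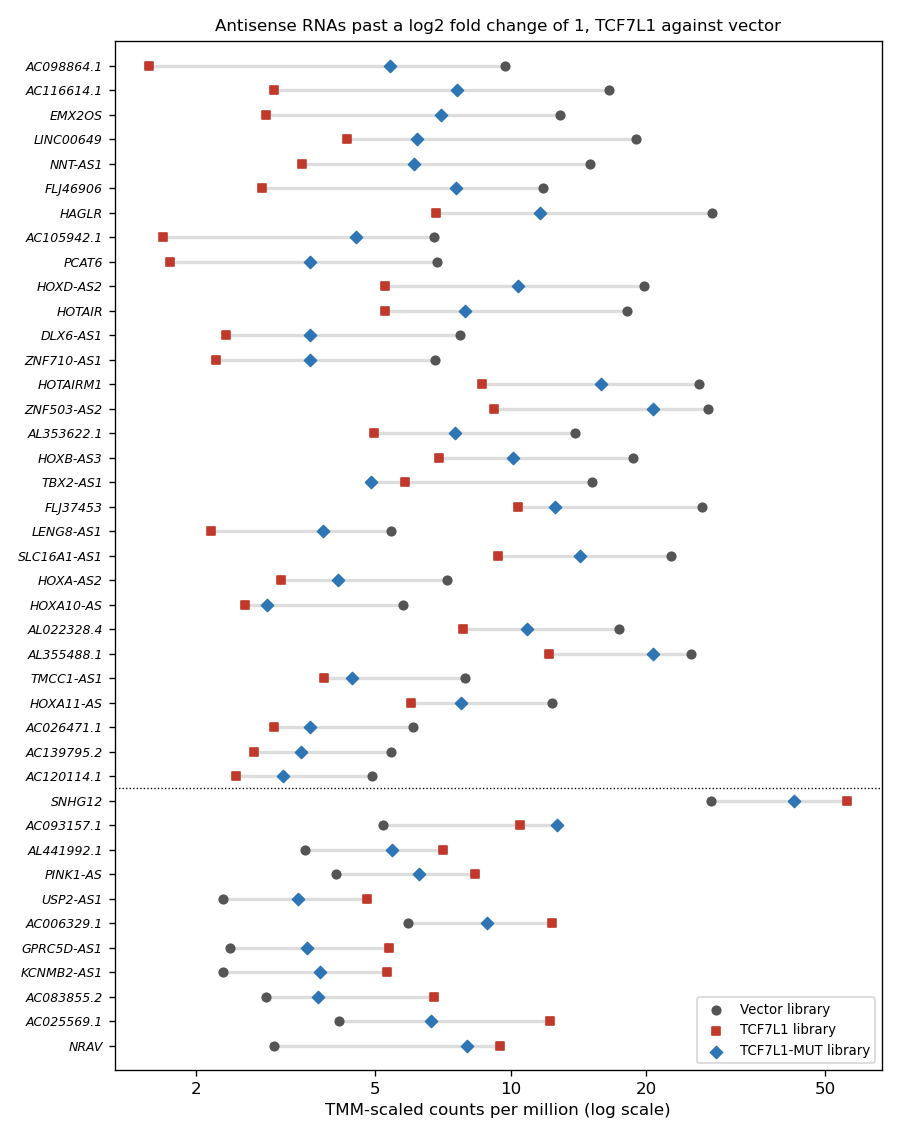
TMM-scaled counts relative to library size (horizontal axis, log scale) in the vector (grey circles), TCF7L1 (red squares) and TCF7L1-MUT (blue diamonds) libraries for the 41 antisense RNAs past a log2 fold change of 1 with TCF7L1 against vector, ordered by fold change, with a dotted line between the 30 lower and the 11 higher ones. The mutant library lies between the other two in most rows, and TBX2-AS1 and AC093157.1 are exceptions.

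On the higher side, NRAV had 75 counts with vector, 162 with TCF7L1 and 159 with TCF7L1-MUT. Known as a negative regulator of the antiviral response, it lies inside the locus of the dynein light chain gene DYNLL1 on chromosome 12 (120490328 to 120495940). It was 3.17-fold higher with TCF7L1 (log2 1.67, interval 1.26 to 2.08), and DYNLL1 was at 0.42. AC025569.1 had 105, 210 and 132 counts (log2 1.56, 1.21 to 1.91), while PTPRB, the receptor tyrosine phosphatase gene it overlaps, was at -0.03. AC083855.2, inside the histamine receptor gene HRH1, had 72, 116 and 74 counts (log2 1.24, 0.81 to 1.69), and HRH1 was at 1.18. Both RNAs were high in the TCF7L1 library, with the mutant nearer to the vector.

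Smaller positive values came from KCNMB2-AS1 (log2 1.21), GPRC5D-AS1 (1.17), AC006329.1 (1.07), USP2-AS1 (1.06) and PINK1-AS (1.03). KCNMB2-AS1 had 58, 91 and 75 counts and GPRC5D-AS1 60, 92 and 70 counts in the vector, TCF7L1 and TCF7L1-MUT libraries, so these values rest on few reads. The coding genes after which they are named, a potassium channel subunit and an orphan receptor, had at most 12 counts in any library. AC006329.1 had 149, 212 and 176 counts, and 83.1% of its exonic bases lay under exons of the other strand. Only 2 of the 11 higher RNAs, NRAV and AC025569.1, had counting intervals wholly above 1, whereas 20 of the 30 lower ones had intervals wholly below -1. The width of an interval depends on the counts, and the share of all genes with such intervals was not computed. When library size alone was scaled, 5 RNAs were above 1 in place of 11, so that the smaller positive values depend on the scaling.

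Grouped by the locus in the symbol, the developmental transcription factor loci held the largest share of low RNAs. Of 22 such antisense RNAs, 10 were lower past 1 with TCF7L1, where 7.34% of all genes were, 0 were higher and 20 below 0, with a median of -0.95 against -0.14 for all 300. This list was drawn up by the first letters of the symbol, which took in ENTPD1-AS1, ENTPD3-AS1, PAXIP1-AS2 and PAXBP1-AS1 by chance, and without these 4 the median of the remaining 18 was -1.10, still with 10 lower. With TCF7L1-MUT, 4 of the 22 were lower past 1, where 3.27% of all genes were, and the median was -0.70. Most of the 22 had under 1000 counts in total. Among all genes with at least 200 and under 1000 counts, 17.5% were lower past 1 with TCF7L1 and 8.22% with TCF7L1-MUT. Of 7 RNAs at zinc finger gene loci, 2 were lower past 1 with TCF7L1 (ZNF503-AS2 and ZNF710-AS1; median -0.68). Of 5 at cell cycle and genome maintenance loci, 0 passed 1 in either direction (median 0.06). Of 3 under the letters listed for adhesion, matrix and guidance genes, MMP25-AS1, LOXL1-AS1 and SDCBP2-AS1, 0 passed it (median -0.07). The last was taken in by the letters SDC, meant for syndecan genes. Of 9 under the letters listed for RNA processing, translation and proteasome genes, 1 was higher, USP2-AS1 (median -0.05), where 1.8% of all genes were. These 9 include THAP9-AS1 and THAP7-AS1, named after genes of another kind, and without them the median of the remaining 7 was also -0.05. There was no antisense RNA at the listed Wnt and growth factor signalling loci, and among the 254 RNAs on no list, 18 were lower and 10 higher, with a median of -0.12. The lists were made with earlier results of these data known and give no independent support.

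The 4 HOX clusters, which encode the homeobox factors of body axis patterning, held 10 of the RNAs when HAGLR was added by its position, after its values were seen. HAGLR, in the HOXD cluster on chromosome 2 (176164051 to 176188958), had 707 counts with vector, 117 with TCF7L1 and 231 with TCF7L1-MUT and was 4.10-fold lower with TCF7L1 (log2 -2.04, interval -2.33 to -1.75). HOXD-AS2, which spans HOXD8, had 498, 90 and 206 counts (log2 -1.91, -2.25 to -1.58), whereas HOXD8 was at -0.41. Of the exonic bases of HOXD-AS2, 49.3% lay under exons of the other strand, where reads from both strands cannot be told apart. The other expressed HOXD genes, HOXD9, HOXD10, HOXD11 and HOXD13, were at -2.38, -2.56, -1.68 and -1.97.

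HOTAIR, transcribed in the HOXC cluster and known for its association with the Polycomb complex PRC2, had 458, 90 and 157 counts in the vector, TCF7L1 and TCF7L1-MUT libraries. It was 3.46-fold lower with TCF7L1 (log2 -1.79, -2.13 to -1.46) and at -1.20 (-1.47 to -0.93) with TCF7L1-MUT. HOXC11, whose 5′ end it overlaps, was at -0.97 with TCF7L1 and at -1.84 with TCF7L1-MUT, so that the antisense RNA was lowest in one library and the coding gene in the other. HOXB-AS3 had 472, 119 and 201 counts (log2 -1.43, -1.73 to -1.14) alongside HOXB3 at -1.33.

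In the HOXA cluster, 4 of 5 antisense RNAs were lower past 1, where 7.34% of all genes were. HOTAIRM1, studied in myeloid differentiation, had 661, 148 and 315 counts (log2 -1.60, -1.87 to -1.34). HOXA-AS2, HOXA10-AS and HOXA11-AS were at -1.22, -1.16 and -1.04 with TCF7L1. Of the 10 HOXA coding genes with at least 200 counts, 0 were lower past 1 (1 when only library size was scaled, the lowest standing at -0.999), and their median was -0.32. Over the 4 clusters, 8 of the 10 antisense RNAs were lower past 1 (median -1.33), and so were 10 of 32 coding HOX genes (median -0.59), of which 5 of 9 were in HOXB, 1 of 8 in HOXC and 4 of 5 in HOXD. On the log2(FPKM + 1) scale the antisense RNAs lower past 1 were 5 of 10 (median -1.02), and the coding genes were again 10. No test of this difference was possible with 1 library each, and the antisense RNAs overlap some of these coding genes.

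**Figure D3:**
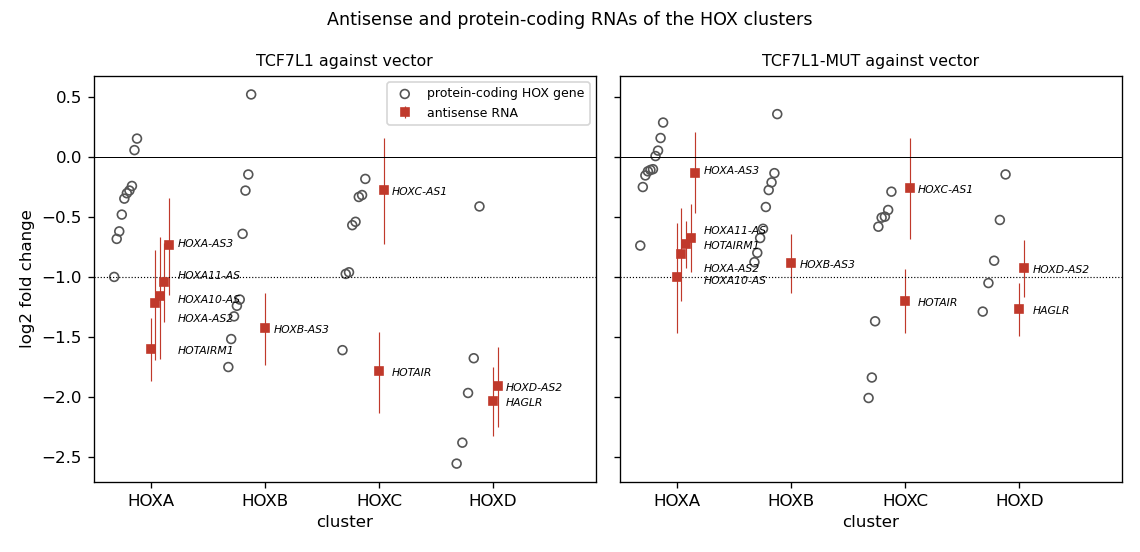
Log2 fold changes (vertical axis) of the 10 antisense RNAs (red squares, bars are 95% counting intervals) and the 32 protein-coding HOX genes with at least 200 counts (open circles) by cluster, for TCF7L1 (left) and TCF7L1-MUT (right) against vector, with a dotted line at -1. In the left panel 8 red squares lie below the dotted line, in HOXA without any coding gene past it, while in HOXD both antisense RNAs and 4 of the 5 coding genes lie below it.

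In the set, 5 antisense RNAs, SNHG7, SNHG12, SNHG10, SNHG21 and ZFAS1, are host genes of small nucleolar RNAs by name, a group chosen after its values were seen. Their median was 0.41 with TCF7L1 and 0.51 with TCF7L1-MUT. SNHG12 had 702, 958 and 846 counts in the vector, TCF7L1 and TCF7L1-MUT libraries (log2 1.01 with TCF7L1, interval 0.86 to 1.15), just past 1. SNHG7 was at 0.64 (0.54 to 0.75), ZFAS1 at 0.41, and SNHG10 and SNHG21 were at 0.09 and -0.01.

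The second comparison asks what the DNA-binding mutant does relative to the same vector library. Fewer RNAs stood apart than with wild-type TCF7L1. With TCF7L1-MUT, 13 of 300 (4.33%) were lower past 1, against 3.27% of all genes, and 4 (1.33%) were higher, against 0.711%. None was past 2 in either direction, against 0.215% of all genes lower and 0.037% higher. The median was -0.12, against 0.04 for all genes. Both comparisons share the vector library, so their values are given side by side without a measure of agreement.

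TBX2-AS1 had the lowest value with the mutant. It spans TBX2, the gene of a T-box repressor, on chromosome 17 (61393456 to 61411555), and had 383 counts with vector, 100 with TCF7L1 and 97 with TCF7L1-MUT, giving log2 fold changes of -1.63 (-1.97 to -1.31) for TCF7L1-MUT and -1.38 (-1.71 to -1.06) for TCF7L1. LINC00649 was at -1.61 (-1.91 to -1.32), NNT-AS1 at -1.30 and HAGLR at -1.27 (-1.49 to -1.05), all less far below the vector than with TCF7L1. AC003102.1, which overlaps the start of the RNA polymerase I factor gene UBTF, went the other way. It had 282, 113 and 82 counts, at -1.44 (-1.81 to -1.08) with the mutant and -0.76 (-1.09 to -0.44) with TCF7L1, and UBTF was at 0.01 and 0.31. LHX1-DT, which starts 124 bases from the LIM homeobox gene LHX1, had 209, 72 and 74 counts, at -1.15 and -0.98, and LHX1 was at -1.85 and -1.08. DLX6-AS1, which spans the homeobox gene DLX6, had 195, 40 and 71 counts, at -1.11 with the mutant and -1.73 with TCF7L1.

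The 4 RNAs higher past 1 with TCF7L1-MUT were NRAV, AC093157.1, AL138789.1 and SGMS1-AS1. NRAV was at 1.43 (1.02 to 1.85). AC093157.1, at the start of the diphthamide synthesis gene DPH5, had 131 counts with vector, 180 with TCF7L1 and 251 with TCF7L1-MUT, at 1.28 (0.97 to 1.60) with the mutant and 1.01 with TCF7L1. AL138789.1, inside DEPDC1, had 135, 180 and 258 counts, at 1.28 and 0.97. SGMS1-AS1, opposite a sphingomyelin synthase gene, had 62, 78 and 112 counts, at 1.20 and 0.89. In the last 3 the mutant library held the most.

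Set directly against TCF7L1-MUT, TCF7L1 gave 8 RNAs lower past 1 (2.67%), against 2.39% of all genes, and 0 higher, against 0.2%. Past 2 there were 0 in either direction, against 0.437% lower and 0.0222% higher among all genes. The median was -0.07. AC098864.1 was the lowest at -1.77 (-2.44 to -1.15), the one RNA whose interval lay wholly below -1. FLJ46906 followed at -1.43 (-1.93 to -0.95), AC105942.1 at -1.42 (-2.08 to -0.80), AC116614.1 at -1.35 (-1.84 to -0.89) and EMX2OS at -1.29 (-1.79 to -0.81). ZNF503-AS2 was at -1.18 (-1.45 to -0.91). At 0.26 (-0.16 to 0.67) for TBX2-AS1 and 0.17 (-0.32 to 0.66) for LHX1-DT, no difference between TCF7L1 and TCF7L1-MUT was detectable at this depth. The lower TCF7L1 level in the mutant line applies to each of these values.

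The last comparison sets each antisense RNA beside the coding gene in its name. A named coding neighbour on the opposite strand was found for 125 of the 300 RNAs, 70 head to head, 30 tail to tail, 14 with the antisense gene spanning the coding gene and 11 with it inside, and 113 of the 125 overlapped. Both genes had at least 200 counts in 110 pairs, with 109 different coding genes, since CTBP1-AS and CTBP1-DT share CTBP1. Across these pairs the log2 fold changes of both genes had a Pearson r of 0.49 and a Spearman rho of 0.38 with TCF7L1, 0.40 and 0.31 with TCF7L1-MUT and 0.34 and 0.26 in the direct comparison. These describe pairs that share libraries and are not independent replicates. The library kit does not mark strand, and HTSeq assigns a read to at most 1 gene, so reads over exons of both genes may have been counted for either gene or for neither. In the 95 pairs with exonic overlap r was 0.46 with TCF7L1, and in the 15 pairs without it was 0.64. The 15 pairs include TBX2-AS1 and TBX2, both lower past a log2 fold change of 1. The split covers annotated exons only, not reads from introns of the other gene, and the difference was not tested. When the nearest coding gene on the other strand was taken whatever its name, r over 255 pairs was 0.41.

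With TCF7L1, both genes were lower past 1 in 4 of the 110 pairs, and the antisense RNA was lower past 1 in 10 (9.09%) and the coding gene in 8 (7.27%). These shares were near the 7.34% of all genes and the 7.14% of protein-coding genes with at least 200 counts. NNT-AS1 and NNT, the gene of the mitochondrial transhydrogenase that makes NADPH, overlap by 539 bases at their 5′ ends on chromosome 5. NNT-AS1 had 378 counts with vector, 59 with TCF7L1 and 121 with TCF7L1-MUT, and NNT had 1712, 286 and 625. The log2 fold changes were -2.12 (-2.54 to -1.72) and -2.02 (-2.21 to -1.84), and the ratio of antisense to coding counts differed by a log2 of -0.10 (-0.56 to 0.35), so the pair was lower together.

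ZNF503-AS2 and ZNF503, the gene of a zinc finger repressor of transcription, overlap by 388 bases at their 5′ ends on chromosome 10. ZNF503-AS2 had 693, 157 and 412 counts and ZNF503 had 4618, 870 and 3730. Against vector they were at -1.58 (-1.84 to -1.33) and -1.85 (-1.96 to -1.75) with TCF7L1, and at -0.40 (-0.58 to -0.23) and 0.04 (-0.03 to 0.10) with TCF7L1-MUT. This was the only pair with both genes lower past 1 in the direct comparison, at -1.18 and -1.89.

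TBX2 was at -1.44 with TCF7L1 and -1.06 with TCF7L1-MUT beside TBX2-AS1, with 819, 205 and 310 counts in the vector, TCF7L1 and TCF7L1-MUT libraries. DLX6 had 231, 61 and 64 counts and was at -1.36 and -1.50. With TCF7L1-MUT, 4 pairs were again lower past 1 on both sides, those at NNT, TBX2, DLX6 and LHX1. The antisense RNA was lower past 1 in 6 of the 110 pairs (5.45%) and the coding gene in 4 (3.64%). Among genes with at least 200 counts these shares were 3.27% of all genes and 3.19% of protein-coding genes. For TBX2-AS1 and LHX1-DT GENCODE release 44 gives 0 exonic bases under exons of the other strand, so the exons annotated there share no bases. Only 154 of the 297 RNAs in that release had the start and end of the count table.

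**Figure D4:**
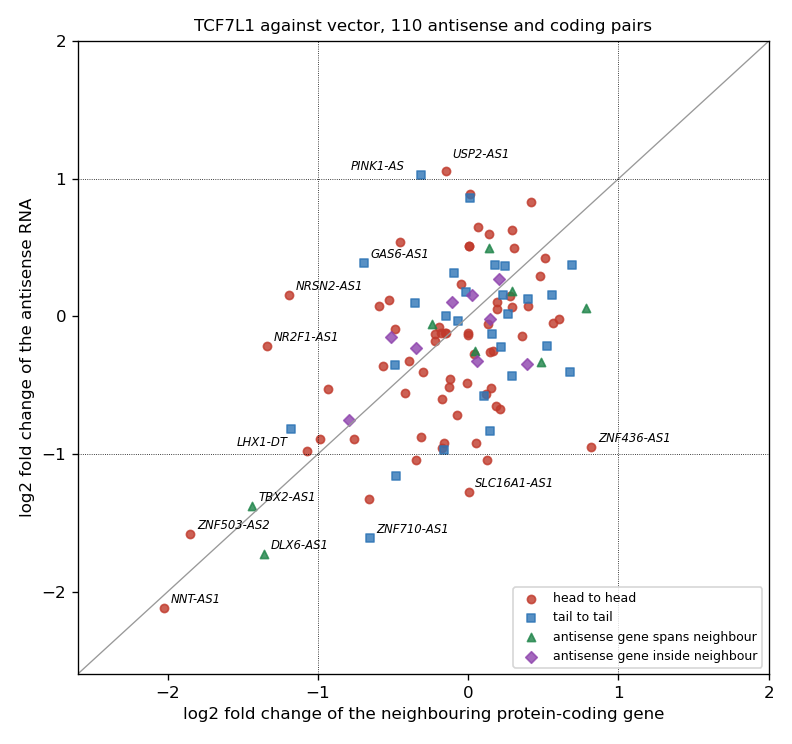
Log2 fold change of the antisense RNA (vertical axis) against that of its named coding neighbour (horizontal axis) for TCF7L1 against vector in 110 pairs, by gene arrangement, with the line of equality in grey and dotted lines at -1 and 1. The pairs of NNT-AS1, ZNF503-AS2, TBX2-AS1 and DLX6-AS1, lie below -1 on both axes, while SLC16A1-AS1 and NR2F1-AS1 show a low value on one axis only.

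Other pairs parted. The interval of the ratio change with TCF7L1 lay below 0 in 37 pairs, above 0 in 17 and covered 0 in 56. Over all pairs the median of the antisense RNAs was -0.13 and that of the coding genes 0.00. Among all genes, the median was -0.16 with at least 200 and under 1000 counts and 0.09 with at least 1000. The genes of a pair were not matched for count, and the part of count in the split of 37 and 17 was not tested. SLC16A1-AS1, head to head with the lactate transporter gene SLC16A1, had 574 counts with vector, 161 with TCF7L1 and 283 with TCF7L1-MUT, at -1.28 (-1.54 to -1.02). SLC16A1 had 5237, 3565 and 4780 counts and was at 0.00 (-0.06 to 0.06). ZNF436-AS1, with 236, 83 and 125 counts, was at -0.95, whereas the zinc finger gene ZNF436, with 257, 308 and 270 counts, was at 0.82. This was the largest ratio change below 0, -1.77 (-2.22 to -1.32). Also named for a low ratio were TMCC1-AS1 at -1.04 beside TMCC1 at 0.12 and NIFK-AS1 at -0.40 beside NIFK, a nucleolar protein gene, at 0.68. In these 4 pairs the antisense RNA was low relative to the gene it is named after.

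The reverse held at NRSN2, where NRSN2-AS1 had 91, 69 and 52 counts and was at 0.16, while NRSN2, the gene of a vesicle membrane protein, had 1302, 386 and 540 counts and was at -1.20. PINK1-AS had 103, 143 and 124 counts and was at 1.03 (0.66 to 1.41), whereas PINK1, a kinase gene of mitophagy, had 974, 532 and 616 counts and was at -0.32. Of the exonic bases of PINK1-AS, 42.9% lie under exons of the other strand. NR2F1-AS1 had 149, 87 and 124 counts and was at -0.22 (-0.62 to 0.17), and NR2F1, a nuclear receptor gene, had 1808, 486 and 1122 counts and was at -1.34. USP2-AS1 was at 1.06 beside the deubiquitinase gene USP2 at -0.15, and GAS6-AS1 at 0.39 beside GAS6, the gene of a ligand of the AXL receptor family, at -0.69. For each of these 5 pairs the interval of the ratio change lay above 0, from 1.08 (0.78 to 1.38) at GAS6 to 1.35 at NRSN2 (0.85 to 1.85) and PINK1 (0.94 to 1.76).

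By arrangement, r between both genes with TCF7L1 was 0.47 in 66 head-to-head pairs, 0.30 in 27 tail-to-tail pairs, 0.86 in 8 pairs in which the antisense gene spans the coding gene and 0.54 in 9 in which it lies inside. The value for the spanning pairs rests on TBX2-AS1 and DLX6-AS1, without which r over the other 6 was -0.03. Without the 4 pairs lower on both sides, r over the remaining 106 of all pairs was 0.30 in place of 0.49. The 4 pairs lower on both sides with TCF7L1 were 2 head-to-head and 2 spanning pairs. These groups are small, and the differences between them were not tested.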

How the data were processed

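RNA was sequenced from 3 stable lines with 1 library per condition. Clean reads were mapped to GRCh38 with STAR 2.5 and counted per gene with HTSeq 0.6.1 by the authors, who deposited raw counts without normalization. The strand setting of the counting is not given in the sources used here, and the kit does not mark strand. FPKM values, also deposited, relate these counts to gene length and to total reads corrected by 1 scaling factor per library. The column named after the DNA-binding domain was taken as TCF7L1-MUT.

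Library sizes were scaled with TMM (edgeR 4.0.16 in R 4.3.3) over genes with at least 10 counts, giving effective sizes of 25230894, 17144915 and 19855248 for vector, TCF7L1 and TCF7L1-MUT. Log2 fold changes used a prior count of 0.125. Intervals are exact Clopper-Pearson intervals at 95%, and those of ratio changes are exact intervals of the conditional odds ratio. With 1 library per condition no test was run, and RNAs are counted past a fold. A coding neighbour was accepted on the opposite strand within 100000 bases. Exon overlaps were computed from GENCODE release 44 and promoter windows taken from RefSeq. Other steps ran in Python 3.11.15 (scipy 1.17.1, numpy 2.4.6, pandas 2.3.3). The calculation was tested on simulated data.

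Named RNAs are the 8 largest values past 1 in each direction against vector, the 5 largest in the direct comparison, the 8 highest mean FPKM, all RNAs past 1 on the lists of loci, the 5 pairs with the largest and the 5 with the smallest ratio change, and those nearest the limit of 200 counts. One pair that the rule names is not reported here. The members, lists and rules were chosen with earlier results of these data known. Marker lists came from general knowledge. Alternatives were DESeq2 1.42.0 size factors, library size only, no filter, a prior count of 2, FPKM with pseudocounts of 1 and 0.1, thinning, other count limits and, added after seeing the data, selection on the third library.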

Additional observations from a re-analysis of the deposited data

How the results depend on the processing

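DESeq2 size factors and a prior count of 2 left all 21 summary values within 1.5 times the reported counts, or within 0.1 for r and an order-statistic interval for medians, and restricting pairs to neighbours overlapping or within 1 kb gave the same values, since all pairs met it. For TCF7L1 against vector, the 30 RNAs lower past a log2 fold change of 1 were 16 with log2(FPKM + 1), 62 with a limit of 100 counts and 17 with a limit of 500 counts. The 11 higher were 5 with library size only or thinned counts, 7 without the filter on low counts or with log2(FPKM + 0.1), 2 with log2(FPKM + 1), 20 at 100 counts and 3 at 500 counts. The 7 lower past 2 were 1 with log2(FPKM + 1), 3 with log2(FPKM + 0.1) and 11 at 100 counts, where 1 was higher past 2. For TCF7L1-MUT against vector, the 13 lower were 3 with log2(FPKM + 1), 37 at 100 counts and 7 at 500 counts, and the 4 higher were 2, 13 and 2. Past 2, 2 were lower and 1 higher at 100 counts, and 1 was lower when RNAs were chosen on the third library. The median of -0.12 was -0.22 with library size only and -0.20 when thinned, where the median of all genes was -0.06. For TCF7L1 against TCF7L1-MUT, the 8 lower were 3 with log2(FPKM + 1), 21 at 100 counts and 4 at 500 counts. They were 17 of 370 (4.59%) when chosen on the vector library, against 3.14% of all genes chosen the same way, and these sets were not matched for count. In place of 0 higher there were 7 at 100 counts and 1 on the vector library (0.27%, against 0.234% of all genes). Past 2 there were 1 lower and 1 higher at 100 counts and 1 lower on the vector library. With log2(FPKM + 1), pairs with both genes lower past 1 went to 0 for TCF7L1-MUT against vector and to 0 in the direct comparison. A pseudocount of 1 FPKM shrinks the fold of RNAs whose median level is 2.53 FPKM, and other count limits change how many RNAs are counted. Shares of all genes past these folds were not computed at other count limits or scalings, so those counts have no background beside them. The cause of the other shifts was not tested. No value of a named RNA past 1 changed sign, and the 141 values of named RNAs moved beyond their counting interval in 34 cases with log2(FPKM + 1) and in 2 with library size only. No paired analysis was possible because each condition has 1 library, and for the same reason none could be left out in turn. Depth limits the RNAs near 200 counts most, where a log2 interval spans about 1.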
